A study of Mus musculus with 9 samples.

Results

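The genes described here are 10 enzymes that make serine, proline, alanine, asparagine and cysteine or pass serine carbon into the folate pool: Phgdh, Psat1, Psph, Shmt2, Mthfd2, Aldh18a1, Pycr1, Asns, Gpt2 and Cth. They were chosen by name and pathway and are 10 of the 55487 genes counted. All 10 passed the filter on low counts. Their estimated counts lay between 46.1 (Pycr1) and 15883 (Asns) per library, and expression is given as counts-per-million (CPM) of the scaled library size.

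RNA-seq was carried out on explanted retinas of mice at postnatal day 28, all C57BL/6J and wild type. Both groups were kept for 48 h in Neurobasal-A medium with 5 mM glucose, then rinsed and held in Krebs' Ringers medium for 1 h. The control group (5 libraries) received glucose alone, and the 2-DG group (4 libraries) also received 20 mM 2-deoxy-D-glucose, a glucose analog that is phosphorylated inside the cell and slows glycolysis. The treatment text is the same for every library and mentions 2-DG, so the groups rest on the sample titles. The labels call the libraries biological replicates without saying whether each came from 1 animal or a pool, and p-values measure only the spread between these libraries.

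Serine synthesis branches off glycolysis at 3-phosphoglycerate, upstream of pyruvate, and its enzymes hand amino groups from glutamate to that carbon skeleton. Proline is likewise built from glutamate, alanine from pyruvate and asparagine from aspartate, so these pathways tie amino acid supply to glucose and glutamine use. Many of the enzymes are known targets of ATF4, the transcription factor of the integrated stress response, and in the retina Müller glia are a known site of serine synthesis.

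ATF4 with a C/EBP partner binds a composite element whose core can be written TGATGNAA. These letters were searched on both strands in RefSeq promoter windows (GRCm38.p6) that run from 250 bases before to 50 bases after a transcription start. Of the 10 enzyme genes, 9 were in the table, and 2 of the 9, Asns and Pycr1, held the letters, both on the strand of the gene, against 4.51% of 27025 genes. Cth was not in the table. The Asns site (chr6:7693214-7693243, minus strand) lay 23 to 16 bases before the RefSeq start and within an exon of GENCODE M21, and the Pycr1 site (chr11:120643833-120643862, minus strand) lay 103 to 96 bases before its start, outside exons. They are shown with the matched letters in capitals and 11 bases of flank on either side:
Asns: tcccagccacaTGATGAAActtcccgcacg
Pycr1: tgccctgtgtaTGATGCAAtgcacaaggct
The 120 bases before the start are shown for the genes with the smallest p-values in the comparison, Gpt2 (chr8:85492456-85492575, plus strand) and Aldh18a1 (chr19:40588464-40588583, minus strand), which held no match in the window:
Gpt2: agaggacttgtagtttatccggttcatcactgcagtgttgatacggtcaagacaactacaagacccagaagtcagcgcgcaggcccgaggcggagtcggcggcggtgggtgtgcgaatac
Aldh18a1: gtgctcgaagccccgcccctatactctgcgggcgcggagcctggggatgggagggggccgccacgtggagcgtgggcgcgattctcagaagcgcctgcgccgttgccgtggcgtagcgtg
A match is a run of letters and no evidence of binding, and its absence says only that the letters are not in this window.

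Library totals ranged from 11317734 to 51802249 estimated counts, and 3 counts corresponded to between 0.0556 and 0.255 CPM. Rod, cone, bipolar and glial markers of the retina were present in every library. Control replicate 2 stood apart with 43700 CPM summed over 10 rod markers, against 5060 to 17000 CPM in the other 8 libraries. The 2-DG replicate 4 had the highest level of 5 of the 10 enzyme genes, so values without it are given for each enzyme gene, and for the other genes and ratios where it moved the value by over 1.5 times, turned its direction or took an unadjusted p from under 0.05 to above it. In bulk RNA, fewer cells of a type and less RNA per cell cannot be told apart.

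Gpt2 was the enzyme gene that separated the groups. It was higher in all 4 2-DG libraries than in any control library, at 2.35-fold the control level. Aldh18a1 was 1.79-fold higher, with 3 of 4 2-DG libraries above every control. Phgdh, Psat1 and Asns had higher means in 2-DG, but control replicates 4 and 5 overlapped 2-DG replicates 1 to 3. Psph and Pycr1 covered similar ranges in both groups, and Cth had the only lower mean.

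Across the whole table, edgeR's quasi-likelihood test with Benjamini-Hochberg adjustment called 0 of the 10 enzyme genes at an adjusted p under 0.05 (0% of the 21049 genes tested). At an unadjusted p under 0.05 there were 2 higher enzyme genes, Gpt2 and Aldh18a1, and 0 lower, where 2.42% of all genes tested were higher and 4.83% lower. DESeq2 called 1 of the 10 at an adjusted p under 0.05 (1.35% of all genes), Gpt2, and limma-voom with sample quality weights called 2 (5.81%), Gpt2 and Aldh18a1. The groups of 1 enzyme gene did not overlap, in the higher direction, against 1.52% of all genes higher and 1.41% lower. The log2 fold change was above 0 in 9 of the 10, against 49.2% of all genes, and the median over the 10 was 0.69, against −0.01 over all genes. Without 2-DG replicate 4 the log2 fold change was above 0 in 6 of the 10 (46.5% of all genes) and the median was 0.29. Without 2-DG replicate 4 alone, 2 enzyme genes were again higher at an unadjusted p under 0.05 (3.38%), and 1 had all its 2-DG libraries above all controls (4.62%). With control replicate 2 and 2-DG replicate 4 both left out, chosen after the data had been seen, the median was 0.11. The count of higher enzyme genes at an unadjusted p under 0.05 was 5 without control replicate 5 (2.4% of all genes) and 4 without 2-DG replicate 3 (1.94%).

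**Figure D1:**
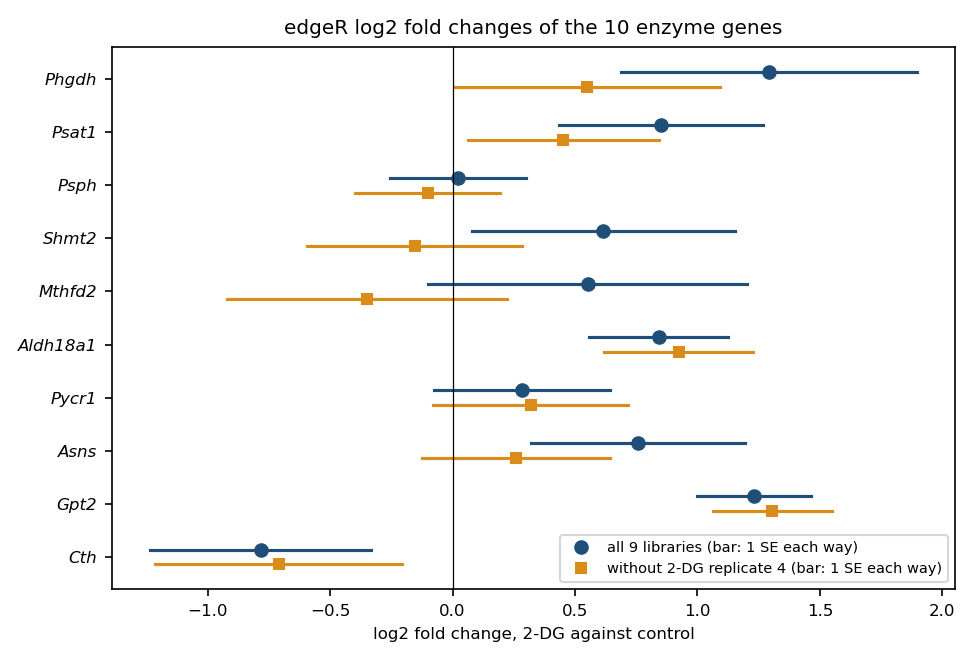
The log2 fold change of each enzyme gene, 2-DG against control, is plotted on the horizontal axis with 1 standard error on either side, from all 9 libraries (blue circles) and without 2-DG replicate 4 (orange squares). Gpt2 (1.23 and 1.31) and Aldh18a1 (0.84 and 0.92) kept their position, while Shmt2 and Mthfd2 crossed 0, to −0.15 and −0.35.

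Among the serine synthesis enzymes, Phgdh and Psat1 had higher means in 2-DG and Psph did not. Phgdh was 2.45-fold and Psat1 1.80-fold higher in 2-DG by the fitted change. Neither passed the test, and the groups overlapped for both.

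Phgdh (ENSMUSG00000053398, chromosome 3, 98313170 to 98339990 on GRCm38) encodes phosphoglycerate dehydrogenase, which takes 3-phosphoglycerate out of glycolysis in the entry step of serine synthesis. Control replicates 1 to 5 had 9.92, 7.45, 7.25, 34.4 and 29.6 CPM of Phgdh, and 2-DG replicates 1 to 4 had 25.5, 28.8, 23.8 and 95.9 CPM. The controls fell into a low set (replicates 1 to 3) and a high set (replicates 4 and 5), the latter above 2-DG replicates 1 to 3, and 2-DG replicate 4 was highest of all. The means were 17.7 ± 13.2 CPM (SD, n = 5) and 43.5 ± 35.0 CPM (SD, n = 4), a log2 fold change of 1.29 (SE 0.60, 95% interval −0.05 to 2.63, edgeR adjusted p = 0.695). Without 2-DG replicate 4 the log2 fold change of Phgdh was 0.55 (edgeR adjusted p = 0.687).

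Psat1 (ENSMUSG00000024640, chromosome 19, 15904678 to 15947337) encodes phosphoserine aminotransferase, which moves the amino group of glutamate onto the Phgdh product. Control replicates had 40.5, 51.8, 44.4, 102 and 125 CPM of Psat1, and 2-DG replicates 104, 111, 83.4 and 227 CPM. The order was much that of Phgdh, with 2-DG replicates 1 to 3 above control replicates 1 to 3 and below control replicate 5. Psat1 had a log2 fold change of 0.85 (SE 0.42, 95% interval −0.07 to 1.77, edgeR adjusted p = 0.712), and 0.45 without 2-DG replicate 4.

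Psph (ENSMUSG00000029446, chromosome 5, 129765558 to 129787449) encodes phosphoserine phosphatase, which releases free serine in the last step. Control replicates had 16.5, 25.8, 15.3, 23.6 and 30.5 CPM of Psph, and 2-DG replicates 26.0, 20.8, 15.7 and 28.2 CPM. The groups covered the same range, and the lowest and highest library were both controls. The log2 fold change of Psph was 0.02 (SE 0.28), and its 95% interval, −0.59 to 0.63, does not show that the groups were alike. Its sign turned with the scaling and was −0.10 without 2-DG replicate 4.

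**Figure D2:**
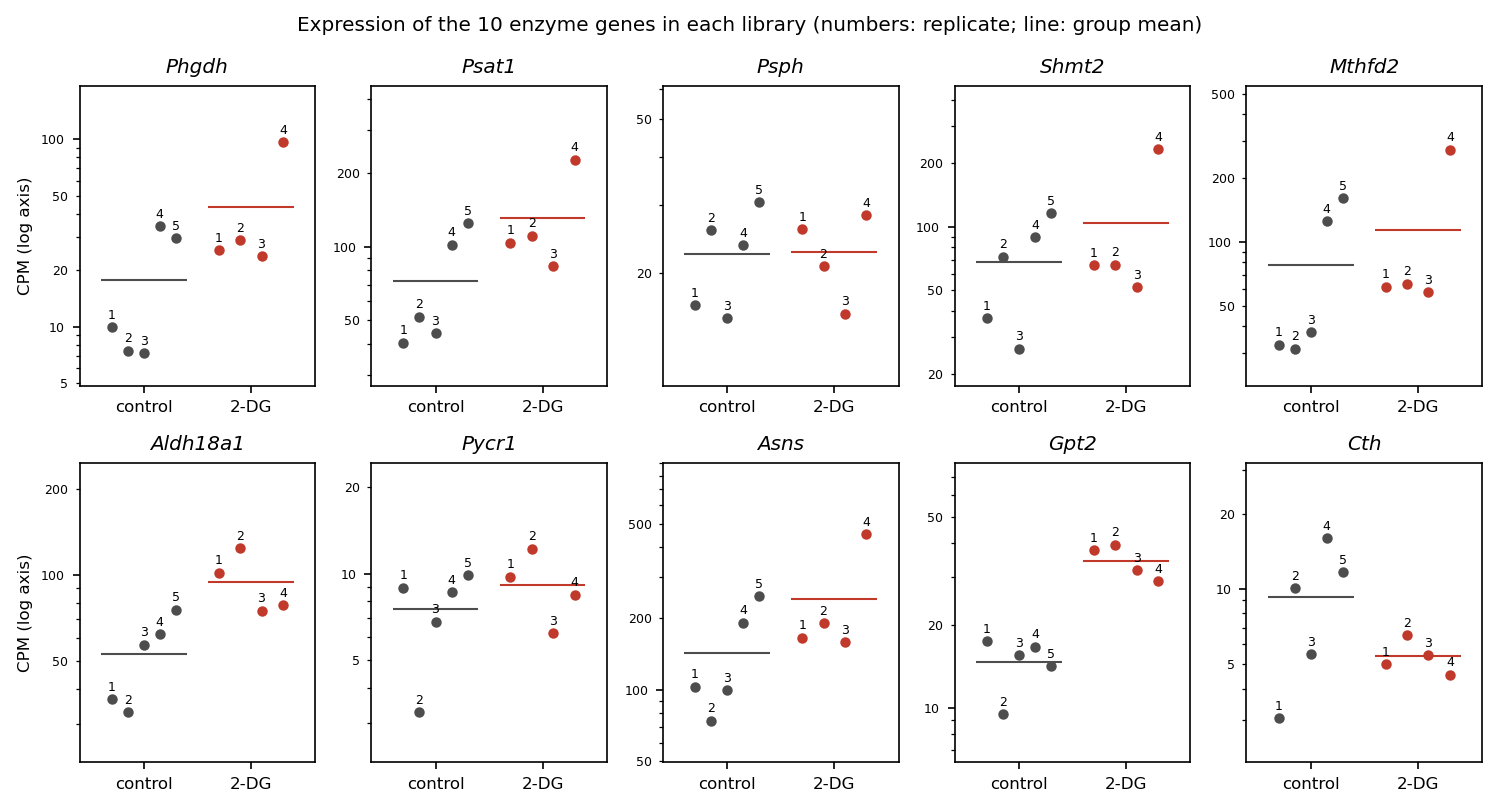
CPM of each enzyme gene in each library on a log axis, 1 panel per gene, with control libraries in grey and 2-DG libraries in red, replicate numbers beside the points and a line at the group mean. For Gpt2 the 4 red points (29.0 to 39.5 CPM) lie above the 5 grey points (9.45 to 17.5 CPM), while in the panels of Phgdh, Shmt2, Mthfd2 and Asns the 3 highest points are 2-DG replicate 4 and control replicates 4 and 5.

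Shmt2 and Mthfd2, the mitochondrial pair that carries serine carbon into folate, overlapped between the groups. Both had a mean above control in 2-DG, by 1.53-fold and 1.47-fold, and in both only 1 of the 4 2-DG libraries lay above the control mean. Leaving out that library turned the direction of both.

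Shmt2 (ENSMUSG00000025403, chromosome 10, 127517123 to 127522444) encodes the mitochondrial serine hydroxymethyltransferase, which splits serine into glycine and a folate-bound carbon unit. Control replicates had 36.8, 72.3, 26.4, 89.4 and 116 CPM of Shmt2, and 2-DG replicates 65.9, 66.1, 51.8 and 233 CPM. The first 3 2-DG libraries lay within the control range and 2-DG replicate 4 well above it. Shmt2 had a log2 fold change of 0.61 (SE 0.54, 95% interval −0.57 to 1.80, edgeR adjusted p = 0.825), and −0.15 without that library.

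Mthfd2 (ENSMUSG00000005667, chromosome 6, 83305691 to 83325908) encodes a mitochondrial dehydrogenase and cyclohydrolase that oxidizes the carbon unit on folate. Control replicates had 32.8, 31.4, 37.5, 125 and 161 CPM of Mthfd2, and 2-DG replicates 61.6, 63.6, 57.8 and 272 CPM. It had the widest spread between controls of these 5 serine and folate genes, 5.14-fold from lowest to highest, while 2-DG replicates 1 to 3 differed by 1.10-fold. For Mthfd2 the log2 fold change was 0.55 (SE 0.65, 95% interval −0.89 to 1.99, edgeR adjusted p = 0.861), and −0.35 without 2-DG replicate 4.

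Of the proline synthesis enzymes, Aldh18a1 had a higher mean in 2-DG and Pycr1 covered similar ranges. Neither passed the edgeR test, and the groups overlapped for both. Aldh18a1 was above the control mean in 4 of 4 2-DG libraries, and its direction did not rest on 2-DG replicate 4.

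Aldh18a1 (ENSMUSG00000025007, chromosome 19, 40550257 to 40588463) encodes pyrroline-5-carboxylate synthase, which starts proline and ornithine synthesis from glutamate. Control replicates had 36.8, 33.1, 57.0, 62.2 and 75.7 CPM of Aldh18a1, and 2-DG replicates 102, 124, 75.0 and 78.5 CPM. Control replicate 5 lay just above the lowest 2-DG library, replicate 3, and no other control reached a 2-DG library. The means were 53.0 ± 17.9 CPM (SD, n = 5) and 95 ± 22.9 CPM (SD, n = 4), a log2 fold change of 0.84 (SE 0.28, 95% interval 0.22 to 1.47, edgeR adjusted p = 0.586). Without 2-DG replicate 4 it was 0.92 (edgeR adjusted p = 0.308). The unadjusted edgeR p of Aldh18a1 was 0.0132 with all libraries, was under 0.05 in all 9 fits that each left out 1 library (highest 0.0487), and the adjusted p in these fits lay between 0.308 and 0.987.

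Pycr1 (ENSMUSG00000025140, chromosome 11, 120635712 to 120643769) encodes a mitochondrial pyrroline-5-carboxylate reductase, which completes proline. Control replicates had 8.92, 3.29, 6.79, 8.62 and 9.85 CPM of Pycr1, and 2-DG replicates 9.76, 12.2, 6.21 and 8.44 CPM. Control replicate 2 was lowest, and the other 8 libraries overlapped. Pycr1 had a log2 fold change of 0.28 (SE 0.36, 95% interval −0.51 to 1.08, edgeR adjusted p = 0.871). It was 0.32 without 2-DG replicate 4 and 0.09 without control replicate 2. Leaving out 2-DG replicate 2 gave 0.12, and leaving out 2-DG replicate 3 gave 0.43.

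The asparagine, alanine and cysteine enzymes went separate ways. Gpt2 was higher in every 2-DG library, Asns was high in the libraries where Phgdh was high, and Cth had a lower mean in 2-DG.

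Gpt2 (ENSMUSG00000031700, chromosome 8, 85492576 to 85527560) encodes the mitochondrial alanine aminotransferase, which interconverts pyruvate and glutamate with alanine and 2-oxoglutarate. Control replicates had 17.5, 9.45, 15.6, 16.7 and 14.2 CPM of Gpt2, and 2-DG replicates 37.7, 39.5, 31.9 and 29.0 CPM. The groups did not overlap, and the lowest 2-DG library was 2-DG replicate 4, the highest for 5 other enzymes. The means were 14.7 ± 3.18 CPM (SD, n = 5) and 34.5 ± 4.90 CPM (SD, n = 4), a log2 fold change of 1.23 (SE 0.23, 95% interval 0.72 to 1.75, edgeR adjusted p = 0.38). The unadjusted edgeR p of Gpt2 was 0.000289 and ranged from 0.000177 to 0.00153 with 1 library left out, where the adjusted p ranged from 0.0660 to 0.985. In each of the 20 alternatives tried, every 2-DG library in the fit had more Gpt2 than every control in it. Most of these keep the same scaling or only leave libraries out, so groups apart in the main fit had little room to overlap. The adjusted p for Gpt2 was 0.000132 with DESeq2 and 0.00657 with limma-voom. Without 2-DG replicate 4 the log2 fold change of Gpt2 was 1.31 (edgeR adjusted p = 0.270). Without both 2-DG replicate 4 and control replicate 2, a fit added after the data had been seen, Gpt2 had a log2 fold change of 1.18 and an edgeR adjusted p of 0.0382, 1 of 10 enzyme genes called where 0.83% of all genes were.

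Asns (ENSMUSG00000029752, chromosome 6, 7675169 to 7693254) encodes asparagine synthetase, which takes the amide group from glutamine. Control replicates had 103, 74.2, 100, 192 and 249 CPM of Asns, and 2-DG replicates 166, 191, 159 and 454 CPM. The first 3 2-DG libraries lay above control replicates 1 to 3 and below replicates 4 and 5. For Asns the log2 fold change was 0.76 (SE 0.44, 95% interval −0.21 to 1.72, edgeR adjusted p = 0.751), and 0.26 without 2-DG replicate 4.

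Cth (ENSMUSG00000028179, chromosome 3, 157894248 to 157925077) encodes cystathionine gamma-lyase, which releases cysteine at the end of transsulfuration. Control replicates had 3.04, 10.1, 5.50, 16 and 11.7 CPM of Cth, and 2-DG replicates 5.01, 6.53, 5.45 and 4.55 CPM. The 2-DG libraries were close together, within 1.44-fold, inside a control range of 5.27-fold. Cth had a log2 fold change of −0.78 (SE 0.45, 95% interval −1.78 to 0.21, edgeR adjusted p = 0.751), and it was below the control mean in 4 of 4 2-DG libraries. Its log2 fold change was −0.71 without 2-DG replicate 4. Without control replicate 1, which had the lowest value, the unadjusted edgeR p of Cth was 0.0218 and the adjusted p 0.629.

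Per kilobase of exon, Asns had the highest control level, 52.5 ± 27.0 CPM per kilobase (SD, n = 5). Mthfd2 (22.2 ± 17.6), Shmt2 (21.9 ± 11.9), Psat1 (17.1 ± 9.05) and Aldh18a1 (13.0 ± 4.38) followed. Phgdh had 7.13 ± 5.30, Psph 5.16 ± 1.48, Cth 3.32 ± 1.84, Gpt2 2.60 ± 0.56 and Pycr1 1.91 ± 0.66 CPM per kilobase. In this order the range of the mean ± SD of each gene overlapped that of the next. In 2-DG Gpt2 had 6.12 ± 0.87 CPM per kilobase (SD, n = 4), a range that overlapped that of Psph (5.24 ± 1.28) but not that of Cth (1.93 ± 0.30).

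A shared order of libraries ran through part of these genes. In 4 of the 10, Phgdh, Shmt2, Mthfd2 and Asns, the 3 highest libraries were 2-DG replicate 4 and control replicates 4 and 5. Control replicates 4 and 5 were the highest controls in 7 of the 10, and 2-DG replicate 3 was the lowest 2-DG library in 8. The labels give 1 batch for all libraries. With 1 library left out in turn, the log2 fold change ranged from 0.55 to 1.64 for Phgdh, 0.45 to 1.13 for Psat1 and 0.26 to 1.04 for Asns, lowest without 2-DG replicate 4 and highest without control replicate 4 (Phgdh) or 5 (Psat1 and Asns).

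Some stress response genes were high in the same libraries and others only in part. Trib3, Chac1 and Sesn2 were picked after their values had been seen. Trib3, an ATF4-induced pseudokinase, had 93.1 and 164 CPM in control replicates 4 and 5 and 239 CPM in 2-DG replicate 4, against 7.11 to 32.4 CPM in the other libraries. Chac1, which degrades glutathione and is also induced by ATF4, had 34.3, 39.1 and 47.7 CPM in these libraries, against 4.30 to 15.1 CPM. Leaving out 2-DG replicate 4 turned the log2 fold change of Trib3 from 0.50 to −0.96 and that of Chac1 from 0.27 to −0.48. Atf4 itself had 1130 and 1160 CPM in control replicates 4 and 5 and 1460 CPM in 2-DG replicate 4, and between 442 and 917 CPM elsewhere. The mRNA of Atf4 had a log2 fold change between the groups of 0.11 (SE 0.38, edgeR adjusted p = 0.960), and of −0.21 without 2-DG replicate 4. In control replicates 4 and 5 and 2-DG replicate 4, Sesn2 had 133, 108 and 144 CPM, against 30.6 to 94.1 CPM elsewhere. Atf3 had 339, 545 and 204 CPM there, against 63.0 to 195 CPM. The log2 fold change of Sesn2 was 0.30, and 0.052 without 2-DG replicate 4. Ddit3, which encodes the stress factor CHOP, followed this order only in part. Control replicates 4 and 5 were its highest controls, but 2-DG replicate 4 lay below 2-DG replicates 1 and 2. Ddit3 had 102, 50.7, 81.2, 115 and 113 CPM in control and 120, 123, 69.2 and 110 CPM in 2-DG libraries (log2 fold change 0.19, SE 0.28, edgeR adjusted p = 0.889). Without control replicate 2 the log2 fold change was 0.035 for Ddit3 and −0.041 for Atf4.

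**Figure D3:**
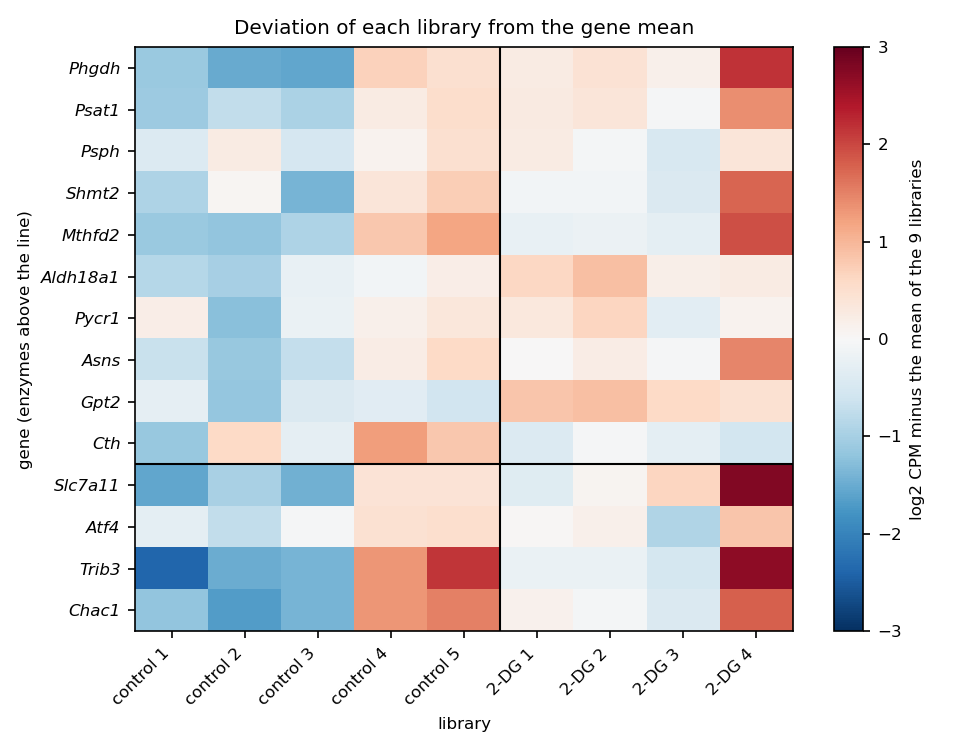
Color shows log2 CPM minus the gene's mean over the 9 libraries, with enzyme genes above the horizontal line, stress and transport genes below it, and control libraries left of the vertical line. Control replicates 4 and 5 and 2-DG replicate 4 are above the mean for Phgdh, Mthfd2, Asns, Trib3 and Chac1, whereas Gpt2 is above its mean in the 4 2-DG libraries.

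The 12 Müller glia markers summed to 2300 to 7890 CPM in control and 1350 to 4290 CPM in 2-DG libraries, with the highest sum in control replicate 5, and all 12 were detected. At an unadjusted p under 0.05, 1 of the 12 was higher and 5 lower. The 10 rod markers summed to 5060 to 43700 CPM in control and 7710 to 17000 CPM in 2-DG libraries, with 0 at an unadjusted p under 0.05. Vessel and pericyte markers were highest in 2-DG replicate 4 (2690 CPM over 8 markers, 1 higher at an unadjusted p under 0.05) and next in control replicate 5 (2080 CPM), against 342 to 1130 CPM in the others. Cone markers (811 CPM over 8 markers, 1 higher at that p) and retinal pigment epithelium markers (196 CPM over 8, 6 of them tested, 3 higher) were highest in 2-DG replicate 3. Control replicate 2 had the next highest cone sum, 578 CPM, against 70.7 to 133 CPM in the other 7 libraries. The remaining 7 of the 12 marker lists are bipolar, amacrine and horizontal, ganglion cell, microglia, astrocyte, lens and red blood cell genes, and had 0 markers at that p. The log2 fold change was above 0 for 8 of 8 bipolar markers, 0 of 8 ganglion cell markers and 0 of 10 rod markers. Bipolar markers summed to 3320 and 3010 CPM in 2-DG replicates 1 and 2, where Gpt2 and Aldh18a1 were highest, and to 241 CPM in control replicate 5 and 405 CPM in 2-DG replicate 4, against 716 to 2110 CPM in the other 5 libraries. The part of cell makeup in the levels of the enzyme genes was not tested.

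Within a library, the ratio of 2 genes does not depend on scaling between libraries, so 5 enzyme genes were set against an isoenzyme or an opposing enzyme. Of the 5 ratios, 2 had an exact two-sided permutation p under 0.05, Gpt2 to Gpt and Aldh18a1 to Prodh, and 0 after Benjamini-Hochberg adjustment over the 5. The smallest p that 5 against 4 libraries allow is 0.00794. With 1 library left out in turn, Gpt2 to Gpt had an exact permutation p under 0.05 only without 2-DG replicate 4, and Aldh18a1 to Prodh only without 2-DG replicate 3.

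Gpt encodes the cytosolic alanine aminotransferase. Its own log2 fold change was −0.35, and −0.61 without 2-DG replicate 4. The log2 ratio of Gpt2 to Gpt was 2.02, 0.25, 1.83, 1.21 and 0.33 in control and 3.21, 2.70, 3.11 and 1.82 in 2-DG libraries. Only 2-DG replicate 4 lay within the control range. The ratio was 2.99-fold higher in 2-DG, a log2 difference of 1.58 (exact permutation p = 0.0397, adjusted p = 0.0992).

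Prodh encodes proline dehydrogenase, which breaks proline down. The log2 ratio of Aldh18a1 to Prodh was 0.78, 0.21, 1.22, 1.42 and 1.45 in control and 2.57, 2.43, 1.23 and 2.39 in 2-DG libraries. The 2-DG replicate 3 lay within the control range. The log2 difference was 1.14 (exact permutation p = 0.0317, adjusted p = 0.0992), and 1.06 without 2-DG replicate 4 (exact permutation p = 0.0893).

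The other 3 ratios had an exact permutation p above 0.05. Shmt2 to its cytosolic isoenzyme Shmt1 had log2 ratios of 1.98, 5.27, 1.64, 2.45 and 2.33 in control and 4.33, 3.40, 4.28 and 4.03 in 2-DG libraries (difference 1.28, exact permutation p = 0.143). Control replicate 2 was the highest of all, and without it the difference was 1.91, with the groups apart (exact permutation p = 0.0286, the smallest that 4 against 4 allow). Shmt1 had 1.86 CPM in control replicate 2, against 2.67 to 23.0 CPM elsewhere. The log2 fold change of Shmt1 was −0.83, and −1.54 without 2-DG replicate 4. Mthfd2 to its homolog Mthfd2l differed by 0.66 (exact permutation p = 0.444). That difference was 0.15 without 2-DG replicate 4 and 0.33 without control replicate 2, but 1.02 and 1.04 without control replicates 4 and 5. Cth to Cbs, the preceding enzyme of transsulfuration, differed by 0.75 (exact permutation p = 0.381). Both genes had lower means in 2-DG, so the higher ratio is no rise of Cth. Cbs had 6.77 ± 2.40 CPM (SD, n = 5) in control and 3.64 ± 3.51 CPM (SD, n = 4) in 2-DG, with 0.849 CPM in 2-DG replicate 1. The difference of Cth to Cbs was 0.26 without 2-DG replicate 1, 1.33 without 2-DG replicate 3 and 0.078 on summed transcript counts.

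**Figure D4:**
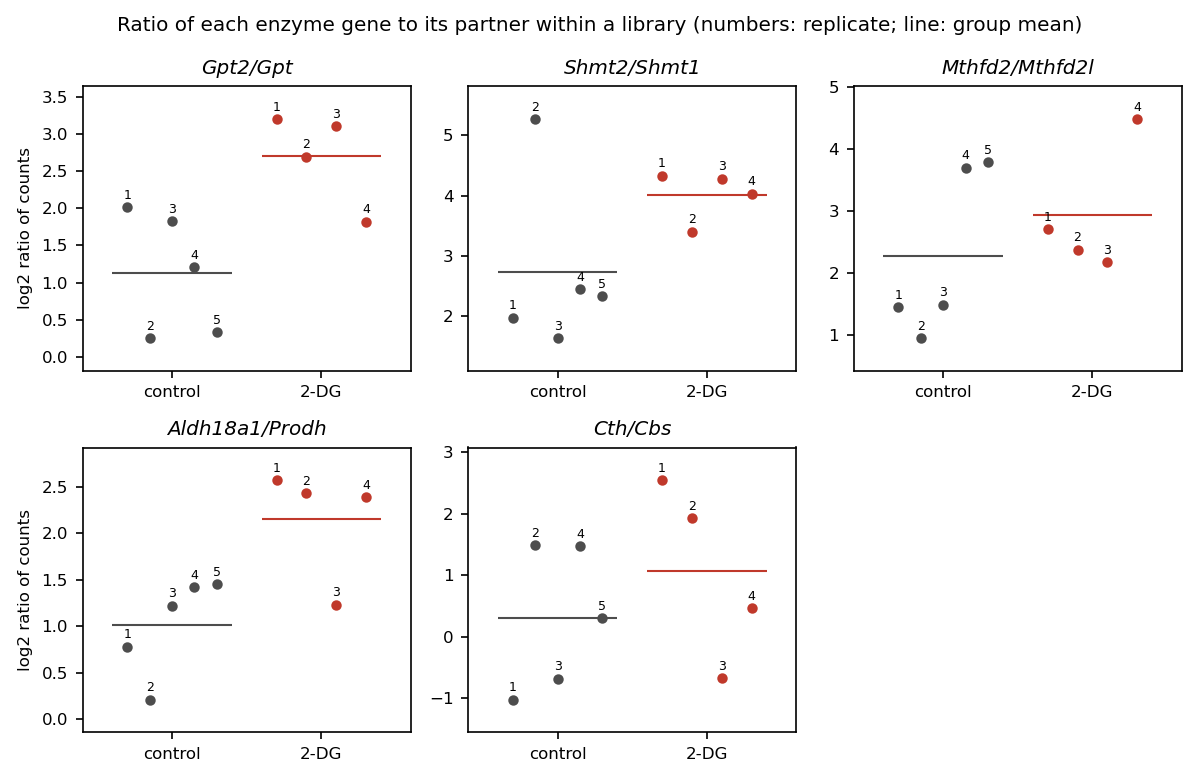
The log2 ratio of estimated counts of each enzyme gene to its partner within a library is plotted for control (grey) and 2-DG (red) libraries, 1 panel per pair, with replicate numbers and a line at the group mean. In the Gpt2/Gpt panel only 2-DG replicate 4 (1.82) falls among the controls (0.25 to 2.02), and in the Shmt2/Shmt1 panel control replicate 2 (5.27) stands above every other library.

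The transcript table divides the 10 genes into 63 transcripts, of which 18 made up at least 5% of their gene. Of the 63, 60 were above 0 in a library. The groups did not overlap for 2 of these 60, the coding transcripts Gpt2-201 and Aldh18a1-201, both higher in 2-DG. Of all 111955 transcripts above 0 in a library, 0.738% were without overlap and higher and 0.712% lower. Gpt2-201 had 9.93, 12, 11.3, 16.8 and 18.7 CPM in control and 23.8, 32.3, 22.2 and 25.0 CPM in 2-DG libraries. In control replicates 2 and 5 this was above the level of the whole gene (9.45 and 14.2 CPM). The gene counts are thus not plain sums of the transcript counts. On summed transcript counts the log2 fold change of Gpt2 was 0.99 (edgeR adjusted p = 0.472). The minor Gpt2-203, annotated with a retained intron, had 0.11 to 1.21 CPM in control libraries and 3.64, 2.62, 2.75 and 0.415 CPM in 2-DG libraries. Here 2-DG replicate 4 lay among the controls, as it did for the nonsense-mediated decay transcript Gpt2-202 (0.831 CPM, against 1.68 to 2.91 in the other 2-DG libraries).

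Aldh18a1-201 had 19.0, 13.4, 37.4, 34.8 and 33.6 CPM in control and 57.9, 71.6, 38.7 and 50.2 CPM in 2-DG libraries. Its share of Aldh18a1 was 38.0% to 65.5% in control and 54.6% to 59.6% in 2-DG libraries, so the ranges overlapped. The other main coding transcript, Aldh18a1-207, had 16.8 to 39.7 CPM in control and 26.1 to 43.1 CPM in 2-DG libraries. For Shmt2, control replicate 2 carried 42.9 CPM of Shmt2-206, against 6.52 to 33.1 CPM in the other controls, and Shmt2-201 made up 28.4% of Shmt2 there, the lowest share of the 9 libraries. How reads were divided between transcripts adds an uncertainty that these counts do not hold.

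**Figure D5:**
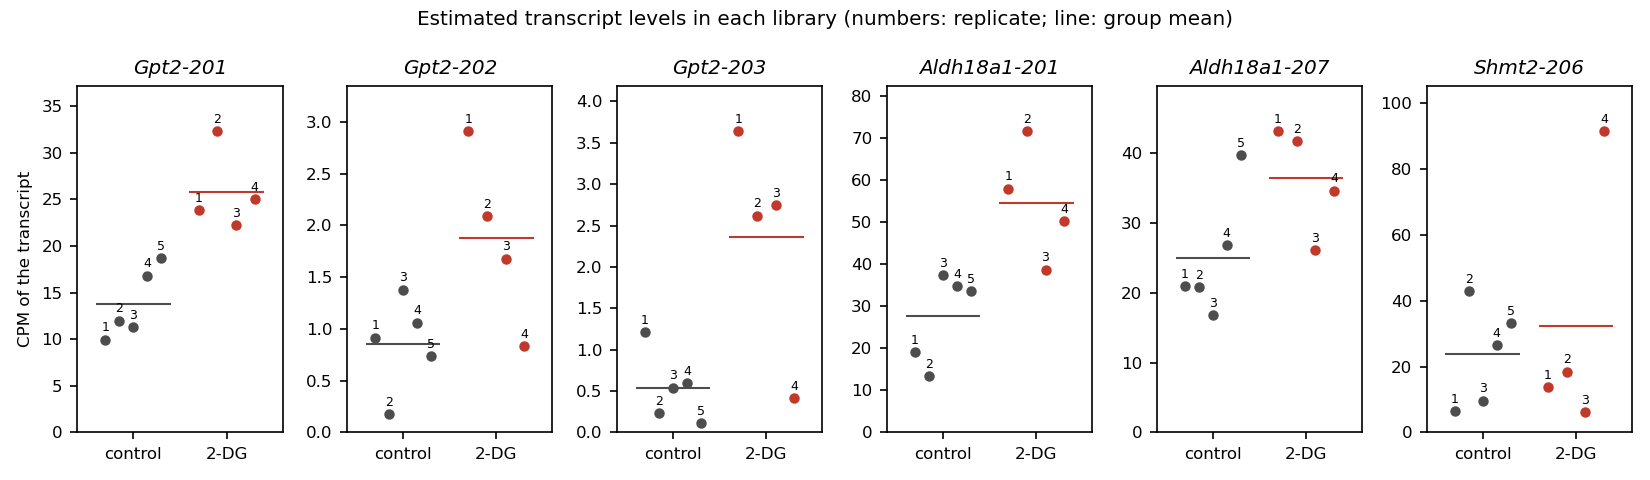
CPM of 6 transcripts of Gpt2, Aldh18a1 and Shmt2 in each library, on axes that start at 0, with control in grey, 2-DG in red, replicate numbers beside the points and a line at the group mean. Gpt2-201 and Aldh18a1-201 have all red points above all grey points, while Gpt2-202 and Gpt2-203 have 2-DG replicate 4 among the controls.

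Of the 17 other genes of serine, glycine and folate metabolism, 4 were higher and 2 lower at an unadjusted p under 0.05, 0 passed adjustment, and the median log2 fold change was 0.22. The smallest p belonged to Aldh1l2, which encodes the mitochondrial enzyme that oxidizes formyl-folate. Control replicates had 14.1, 7.59, 17.2, 9.25 and 6.49 CPM of Aldh1l2, and 2-DG replicates 35.6, 39.5, 30.9 and 10.3 CPM. The 2-DG replicate 4 lay among the controls, opposite to its place for Mthfd2. Its log2 fold change was 1.41 (SE 0.42, edgeR adjusted p = 0.526, unadjusted 0.00669), and 1.7 without 2-DG replicate 4, where the groups did not overlap. Mthfd1l, the mitochondrial formate-producing synthetase, had 17.5 to 41.2 CPM in control and 41.5 to 56.4 CPM in 2-DG libraries without overlap (log2 fold change 0.68, SE 0.25). Mthfd1, the cytosolic trifunctional folate enzyme, had 29.7 to 46.8 and 46.2 to 70.7 CPM (log2 fold change 0.60, SE 0.23).

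Of 8 listed genes of proline and ornithine metabolism, 7 were tested, 0 had an unadjusted p under 0.05, 3 had a log2 fold change above 0, and the median log2 fold change was −0.0027. The smallest p-values were those of Aldh4a1 (log2 fold change −0.25), which acts after Prodh, Prodh (−0.20) and Oaz1 (0.12), an inhibitor of polyamine synthesis. Leaving out 2-DG replicate 4 gave log2 fold changes of −0.17 for Aldh4a1, −0.055 for Prodh and 0.014 for Oaz1, which had 0.29 without control replicate 2.

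In the list of 14 alanine, aspartate, asparagine and glutamate genes, 0 were higher and 1 was lower at an unadjusted p under 0.05, and the median log2 fold change was 0.08. The lower gene was Glul, the glutamine synthetase of Müller glia, with 997, 2150, 1220, 2850 and 4440 CPM in control and 389, 546, 1840 and 1060 CPM in 2-DG libraries (log2 fold change −1.28, SE 0.58, edgeR adjusted p = 0.689). The unadjusted edgeR p of Glul was 0.0704 without 2-DG replicate 4 and 0.0648 without control replicate 2. Glud1, glutamate dehydrogenase, had 67.6 to 128 CPM in control and 130 to 165 CPM in 2-DG libraries, without overlap, at a log2 fold change of 0.34 (SE 0.22, edgeR adjusted p = 0.779), and of 0.20 without control replicate 2. Gls2, a glutaminase, had a log2 fold change of −0.70 (SE 0.38).

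The 13 methionine cycle and transsulfuration genes had 0 at an unadjusted p under 0.05 and a median log2 fold change of 0.25. The smallest p-values were those of the methionine synthase gene Mtr (log2 fold change 0.46), Sqor (1.07), which oxidizes sulfide, and Ahcy (0.48), and the last had 85.3 CPM in 2-DG replicate 4 against 31.4 to 42.0 CPM in the other 8 libraries. Without that library the log2 fold change was 0.58 for Sqor and 0.11 for Ahcy. Of 14 amino acid transporters, 13 were tested, 1 was higher and 1 lower at an unadjusted p under 0.05, and the median was 0.34. The higher was the cystine carrier Slc7a11, with 74.6, 111, 80.9, 289 and 292 CPM in control and 171, 233, 345 and 1500 CPM in 2-DG libraries (log2 fold change 1.73, SE 0.69). Without 2-DG replicate 4 the log2 fold change of Slc7a11 was 0.56 (edgeR adjusted p = 0.663). The lower was the glial glutamate carrier Slc1a3 (−1.07, SE 0.47), which like Glul is also in the list of Müller glia markers, and Slc3a2, the partner chain of Slc7a11, had a log2 fold change of 0.66 (SE 0.44). The log2 fold change of Slc3a2 was 0.11 without 2-DG replicate 4, and the unadjusted edgeR p was 0.105 for Slc1a3 and 0.301 for Slc7a11 in that fit. Without control replicate 2 that of Slc7a11 was 0.0684.

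The list of 17 genes around ATF4 holds genes it induces as well as its regulators. Of the 17, 1 was higher and 0 lower at an unadjusted p under 0.05, and the median log2 fold change was 0.19. The higher gene was Eif2ak1, a kinase of the translation factor eIF2 upstream of ATF4, with 44.1, 39.1, 41.3, 39.9 and 34.8 CPM in control and 49.0, 52.7, 49.7 and 60.5 CPM in 2-DG libraries, without overlap (log2 fold change 0.41, SE 0.17, edgeR adjusted p = 0.658). Leaving out 2-DG replicate 4 gave Eif2ak1 an unadjusted edgeR p of 0.0794. Nupr1 had a log2 fold change of 0.70 and Atf3 one of −1.16 (SE 0.56). The 7 genes of the glycolytic steps around 3-phosphoglycerate, 6 of them tested, had 0 at an unadjusted p under 0.05 and a median log2 fold change of 0.00, with the smallest p-values for Pgk1 (0.28), Bpgm (−0.15) and Gapdh (0.20). In the fit without 2-DG replicate 4 the log2 fold changes of Pgk1, Bpgm and Gapdh were −0.15, −0.046 and 0.029, and without control replicate 2 those of Pgk1 and Gapdh were 0.47 and 0.46.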

How the data were processed

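RNA was taken from 5 control and 4 2-DG explant samples, and libraries were made from 4 ng of total RNA with a stranded kit and 13 PCR cycles and read as 101-base pairs. The submitters' processing notes name kallisto and GRCm38. The authors deposited estimated counts per gene and per transcript, and how transcripts were summarised to genes is not given in the sources used here. A deposited table of CPM on a scaled library size, a signal that is never negative, listed 9 of the 10 enzyme genes and served as an alternative. The authors' comparison table (log2 fold changes, mean log2 CPM, F, p and adjusted p-values) was not used.

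Estimated counts were rounded, filtered with filterByExpr, scaled by the trimmed mean of M values (TMM) and fitted with edgeR 4.0.16 (R 4.3.3), as 2-DG against control with glmQLFit and glmQLFTest over all 21049 genes that passed, without covariates. P-values were adjusted by Benjamini-Hochberg over these genes. DESeq2 1.42.0 and limma 3.58.1 (voom with sample quality weights) were alternatives, beside other scalings, filters, input tables and libraries left out. Ratios were log2 of counts plus 0.5 and were tested by exact permutation. Scripts were tested on simulated data. A gene planned as a ratio partner and proline list member is not reported here, and the ratios and that list are given without it.

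The 10 enzyme genes are named whatever their values, with the ratio partners, Atf4, Ddit3 and the 3 genes of smallest p in each of 7 pathway lists. The members, pathway lists and 12 marker lists were chosen with earlier results of these data known. Gene coordinates are those of GENCODE M21 and promoters those of RefSeq.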

Additional observations from a re-analysis of the deposited data

Results flagged for a closer look

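In 30 groups of libraries (10 enzyme genes and 5 ratios in either group), 6 had a library far from the others of its group, where chance flags about 1 in 20 groups. In the 2-DG group this was replicate 4 for 4 genes, with 95.9 CPM of Phgdh, 233 CPM of Shmt2, 272 CPM of Mthfd2 and 454 CPM of Asns. Control replicate 2 stood apart in the log2 ratio of Shmt2 to Shmt1 (5.27). The 2-DG replicate 3 stood apart in the log2 ratio of Aldh18a1 to Prodh (1.23). These genes and ratios share libraries, so the 6 are not independent of each other.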

How the results depend on the processing

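Under 20 alternatives, 186 of 199 values of the enzyme genes kept their direction, and 7 of the 10 genes kept it in all. Enzyme genes with an adjusted p under 0.05 numbered 1 with DESeq2, 2 with limma-voom and 1 with control replicate 2 and 2-DG replicate 4 both left out, an alternative chosen after seeing the data, and 0 to 0 with 1 library left out. Those higher at an unadjusted p under 0.05 numbered 4 with no filter on low counts (1.89% of all genes) and 2 to 5 with 1 library left out, and those without overlap 2 (1.11% of all genes) and 1 to 2 (1.64% to 4.62%). The median log2 fold change was 0.29 to 1.00 with 1 library left out, 0.32 with limma-voom and 0.11 with both libraries left out. Ratios with an exact p under 0.05 numbered 1 of 2 on deposited CPM, where the other 3, Gpt2 to Gpt among them, could not be computed, and 0 to 1 with 1 library left out. The cause of the other differences was not tested.

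The log2 fold change of Psph was −0.079 with upper-quartile scaling, −0.039 with library size only, −0.054 on deposited CPM, −0.051 with both libraries left out and −0.10 to 0.16 with 1 left out. That of Shmt2 was −0.14 with both left out and −0.15 to 0.88 with 1 left out. That of Mthfd2 was −0.13 with limma-voom, −0.56 with both left out and −0.35 to 1.00 with 1 left out. The log2 ratio difference of Mthfd2 to Mthfd2l was −0.18 with both left out.

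The labels do not say whether the replicate numbers pair the libraries, and the values do not settle it. Deviations of same-numbered libraries from their group means had correlations of 0.45, −0.15, 0.10 and 0.21 across genes. Control replicates 1 and 4 correlated best with the 2-DG library of their own number, and control replicates 2 and 3 did not. With the number as a replicate block, 7 enzyme genes were higher at an unadjusted edgeR p under 0.05 (3.24% of all genes) and 0 passed adjustment. The 7 were Phgdh (log2 fold change 1.62), Psat1 (1.13), Shmt2 (0.77), Mthfd2 (0.92), Aldh18a1 (1.02), Asns (0.99) and Gpt2 (1.24). Control replicate 5 has no partner in that fit. With the block 0 ratios had an exact p under 0.05, since 4 pairs allow no p under 0.125. Every enzyme gene had at least 46.1 counts in every library, above the floor of 3 counts.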
